A study of Schizosaccharomyces pombe with 12 samples.

Results

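The small nucleolar and small nuclear RNA genes of fission yeast, Schizosaccharomyces pombe, were described from the genome annotation deposited with a study of RNA-DNA hybrids at a DNA double-strand break. The members were all features on chromosomes I, II and III whose name starts with SPSNORNA or SPSNRNA. There were 60, of 6970 nuclear features and 7002 in all, with 53 in the SPSNORNA class and 7 in the SPSNRNA class. The study comprised 12 ChIP-exo samples in 6 groups of 2, and every strain carried the inducible DSB-PpoI system, in which the endonuclease I-PpoI cuts an inserted site. RNA-DNA hybrids were captured with the antibody S9.6 in Rnh1del-Rnh201del cells, which lack both RNase H genes, with induction ON or OFF. Ssb2 with a Flag tag, which belongs to the RPA complex that coats single-stranded DNA, was captured in cells with no further change (WT) with induction ON or OFF, in Rnh1del-Rnh201del cells with induction ON and in pNmt1::Rnh1 cells, where the nmt1 promoter drives Rnh1, with induction ON. The files analysed here hold the annotation, the genome and the insert and no value of any sample, so depth is unknown, no group was compared and every number below describes the annotation. The main counts over members stand beside the same count over other features or other RNA genes, without a test.

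Small nucleolar RNAs guide chemical changes on other RNAs. Box C/D snoRNAs carry a C box near the 5′ end and a D box near the 3′ end, and the stretch directly before a D box (or an internal D′ box) pairs with ribosomal RNA, where the base opposite the fifth position before the box is methylated. Box H/ACA snoRNAs fold into hairpins, end with the letters ACA just before the 3′ end, and guide pseudouridylation. The spliceosomal snRNAs U1, U2, U4, U5 and U6 recognise and remove introns, and U3, a box C/D RNA without a methylation role, is needed to process the ribosomal RNA precursor.

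Box C/D genes are shown first because their boxes and guide stretches can be read directly. All sequences are RefSeq's, assembly ASM294v3, written 5′ to 3′ as DNA on the RefSeq strand. Capitals mark the longest stretch complementary to the target, a C box equal or close to TGATGA stands near each 5′ end, and a CTGA follows each marked stretch within 2 bases. The genes lie on chromosome I at 1200168 to 1200253 (snR41, plus strand), chromosome I at 2627988 to 2628071 (snoR02, minus), chromosome I at 1712996 to 1713071 (snoR39a, plus), chromosome II at 1791743 to 1791820 (snoR39b, minus) and chromosome II at 2044411 to 2044505 (snoZ30, plus).
snR41: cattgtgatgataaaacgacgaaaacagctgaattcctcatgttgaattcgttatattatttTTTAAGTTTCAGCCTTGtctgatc
snoR02: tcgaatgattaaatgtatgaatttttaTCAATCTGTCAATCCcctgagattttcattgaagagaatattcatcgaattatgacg
snoR39a: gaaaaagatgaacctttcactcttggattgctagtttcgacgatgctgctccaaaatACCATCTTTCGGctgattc
snoR39b: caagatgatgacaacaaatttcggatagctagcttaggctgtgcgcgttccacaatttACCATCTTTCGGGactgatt
snoZ30: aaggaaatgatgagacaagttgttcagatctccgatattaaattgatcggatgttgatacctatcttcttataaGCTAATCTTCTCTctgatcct

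The longest guide stretch of the genome's box C/D class belonged to snR41, with 17 bases complementary to 18S ribosomal RNA at 18S bases 1139 to 1155. In it, the fifth base before the D box faced 18S base 1142. The stretch of snoR02 was 15 bases long, matched 18S bases 1245 to 1259 and ended 1 base before an internal CTGA, so that the fifth base before the CTGA faced 18S base 1248. The relatives snoR39a and snoR39b shared the target region, with 12 bases against 28S bases 835 to 846 and 13 bases against 28S bases 834 to 846. The base facing the fifth position before the CTGA differed, with 28S base 839 for snoR39a and 837 for snoR39b. snoZ30 differed in its target. Its 13 bases directly before the D box were complementary to the spliced U6 snRNA at U6 bases 37 to 49, with U6 base 41 facing the fifth position. In human cells the snoRNA of the same name is known to guide methylation of U6.

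Among the 34 SPSNORNA genes that RefSeq does not name as box H/ACA, 28 held a stretch of at least 11 bases complementary to 18S, 28S or 5.8S ribosomal RNA or to a spliceosomal snRNA. A same-length stretch of the same sense as the target, which cannot pair and serves as the background, was found in 2 of the 34. At 13 bases or more the counts were 17 and 0. Stretches of at least 10 bases that ended within 2 bases of a CTGA, the guide position, were found in 17 of 34 in the complementary sense and in 1 in the same sense. The 19 box H/ACA genes, whose guide stretches are split and short, showed no such contrast, with 7 against 9 at 11 bases or more and 0 before a CTGA.

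Boxes were then counted by family. Within 20 bases of the ends, 17 of the 34 genes held both an exact C box (TGATGA) and an exact D box (CTGA). The count was 27 with 1 mismatch allowed in the C box, a setting chosen after seeing the data. The 34 are not all known box C/D genes. They include snR30, a box H/ACA RNA described below, and sno16, which had neither box under either setting. No box H/ACA gene, no SPSNRNA gene and none of 171 tRNA genes held both boxes under either setting. The SPSNRNA genes include snu3 and snu32, the U3 genes, which as box C/D RNAs were missed by this search. The D box alone was present in 29 of the 34, and in 16 of them exactly 2 bases followed it. Read on the opposite strand, none of the 34 held both boxes.

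Pairs that share a name were compared for their complementary stretches. None of the stretches named here ended within 2 bases of a CTGA, the guide position counted above. snoR69 and snoR69b matched 28S bases 3038 to 3051 (14 bases) and 3040 to 3051 (12 bases). snoU24 and snoU24b matched 28S bases 1483 to 1492 (10 bases) and 1478 to 1492 (15 bases). For snoR54 and snoR54b no shared target stretch of at least 9 bases was found. snoR54 matched 18S bases 985 to 998 over 14 bases, while the longest stretch of snoR54b was 11 bases against 5.8S bases 133 to 143. Over the whole RefSeq genes, none of the 1770 pairs of members was more than 80% identical, and the highest identity was 65.4% between snoR39a and snoR39b. That comparison took snu3 at its RefSeq interval. At the snu3 locus itself a stretch 91.5% identical to snu32 was found, as described with the U3 genes.

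snoU24 was the shortest member of all, with 48 bases in the deposited list and 47 in RefSeq, and its annotation held a C box but no D box. Reading on from the annotated 3′ end at chromosome I, 5369640 to 5369686 on the minus strand, the next CTGA began 14 bases further. A gene ending 2 bases after that CTGA would be 67 bases long. The sequence through that CTGA is printed with the CTGA in capitals.
snoU24: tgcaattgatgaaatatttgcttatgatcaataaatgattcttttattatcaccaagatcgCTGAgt

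Deposited lengths of the SPSNORNA class ran from 48 to 327 bases, with a median of 97 and quartiles of 84 and 168. The distribution fell into a short and a long group, with 31 genes under 120 bases and 22 over. The 19 genes that RefSeq names as box H/ACA ran from 143 to 274 bases with a median of 169, and the other 34 had a median of 85. For comparison, the 171 tRNA genes had a median of 74 bases. The shortest after snoU24 were snoR68 at 74 bases and snoR38 and snr62 at 75 each. The longest was snR30 at 327 bases, the U17 RNA, a box H/ACA RNA known to act in 18S processing. RefSeq does not name its box family, and it had an ACA exactly 3 bases before its end. The next was snoZ30 at 301 bases, against 95 in RefSeq, and then snR101 at 274.

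**Figure D1:**
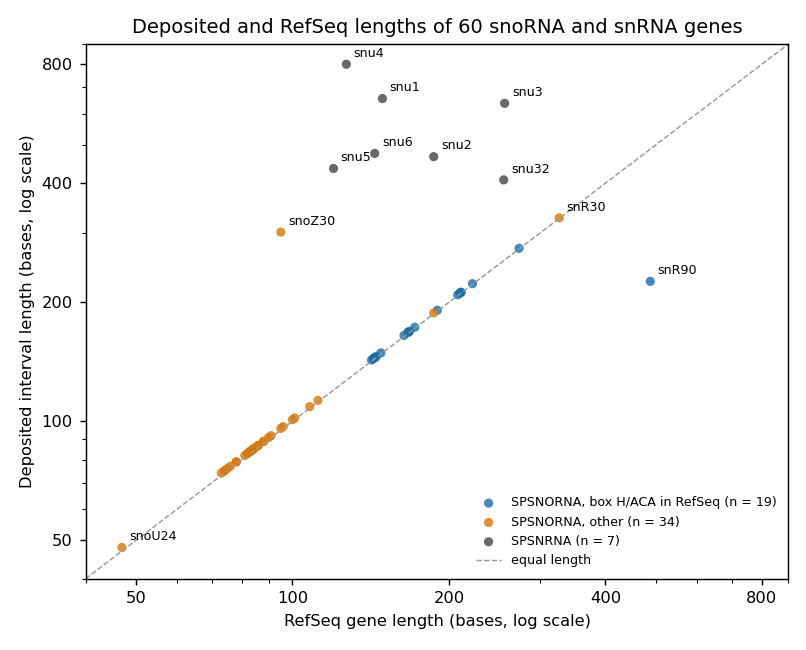
Deposited interval length of each of the 60 members against its RefSeq gene length, both in bases on log scales, with the dashed line marking equal length. SPSNORNA members lie within 1 base of the line except snoZ30 and snR90, whereas all 7 SPSNRNA members lie above it.

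The 2 classes were annotated differently. In chromosome coordinates, used here, a base before a minus-strand gene lies at its 3′ end. In 51 of 53 SPSNORNA members the deposited interval began 1 base before the RefSeq gene and ended at the same base. The exceptions were snoZ30 and snR90, the latter with 226 bases deposited and 488 in RefSeq, where the gene has an intron. In the SPSNRNA class this held for 0 of 7. Their deposited intervals ran from 408 to 800 bases with a median of 476, against 120 to 256 bases and a median of 149 in RefSeq. Summed over the 7 genes the deposited intervals covered 3879 bases and the RefSeq genes 1238.

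**Figure D2:**
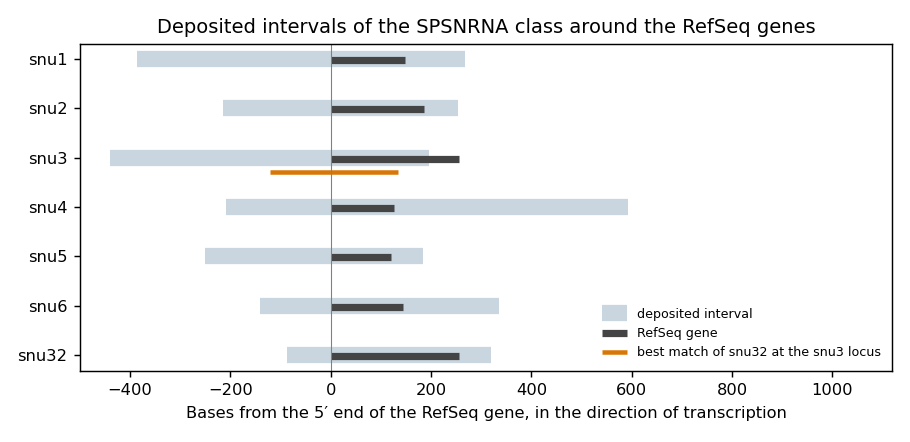
Deposited interval (wide bar) of each SPSNRNA gene around its RefSeq gene (dark bar), in bases from the RefSeq 5′ end in the direction of transcription. Every deposited interval extends past the RefSeq gene at both ends except that of snu3, where the RefSeq gene runs past it at the 3′ end; the orange line marks the best match of snu32 there.

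U4 (snu4) was the most extended, with 800 bases deposited and 127 in RefSeq. U1 (snu1) had 655 against 149, U6 (snu6) 476 against 144, U2 (snu2) 467 against 187 and U5 (snu5) 436 against 120. The U3 genes, which RefSeq classes as snoRNA, had 637 against 256 (snu3) and 408 against 255 (snu32, the U3B gene). The spliceosomal RNAs are printed from RefSeq because their short functional stretches fall within these genes. Capitals mark the 5′ end of U1 that pairs with the 5′ splice site, the branch point recognition stretch of U2 and the loop of U5 that contacts exons. The genes lie at chromosome II, 3020205 to 3020353 (snu1, plus strand), chromosome I, 959370 to 959556 (snu2, minus) and chromosome II, 3236867 to 3236986 (snu5, plus).
snu1: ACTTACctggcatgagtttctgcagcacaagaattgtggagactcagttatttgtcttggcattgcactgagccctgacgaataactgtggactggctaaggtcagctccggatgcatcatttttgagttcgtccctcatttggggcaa
snu2: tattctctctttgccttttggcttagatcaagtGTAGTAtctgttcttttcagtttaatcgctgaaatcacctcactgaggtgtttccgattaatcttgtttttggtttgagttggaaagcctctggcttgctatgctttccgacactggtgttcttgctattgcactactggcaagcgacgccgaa
snu5: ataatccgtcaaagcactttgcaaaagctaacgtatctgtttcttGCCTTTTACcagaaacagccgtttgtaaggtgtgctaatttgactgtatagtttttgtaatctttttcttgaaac

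U6 is unusual in fission yeast, since its gene is known to hold an intron of the kind found in protein-coding genes. In RefSeq the gene spans 144 bases at chromosome I, 2562276 to 2562419 on the minus strand, with exons of 46 and 48 bases and an intron of 50 bases, which is printed in capitals.
snu6: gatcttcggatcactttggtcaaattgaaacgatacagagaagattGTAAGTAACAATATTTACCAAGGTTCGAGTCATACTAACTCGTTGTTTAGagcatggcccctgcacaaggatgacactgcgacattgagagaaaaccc

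The intron began with GTAAGT, the most common start among 5228 introns of protein-coding genes (27.5% of them), and held TACTAAC, a branch point stretch present in 12.3%. It also held GTTCGAGTC at gene bases 69 to 77, a match to GTTCGANTC, the B box through which RNA polymerase III genes recruit their transcription factor. The same motif was present in 107 of 171 tRNA genes (62.6%), in 71 of 5113 protein-coding genes (1.39%) and in no other member. The splice site at the start of the intron and the first 6 bases of U1 are complementary, as the printed U1 end ACTTAC shows.

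The U3 genes are relatives, and their annotated starts could be compared. The 255 bases of snu32 aligned best on chromosome I at 987692 to 987947 on the minus strand, over 256 bases, with 236 identical bases in 258 alignment columns (91.5%). That match began 122 bases upstream of the RefSeq start of snu3 (987570 to 987825) and overlapped the RefSeq gene by 134 bases. It lay wholly inside the deposited snu3 interval (987630 to 988266), with 319 bases to spare on the 5′ side and 62 on the 3′ side. The first 80 bases of snu32 (chromosome II, 3959007 to 3959086, minus strand) were identical to those of the match (chromosome I, 987868 to 987947, minus strand) and are printed for that reason.
snu32: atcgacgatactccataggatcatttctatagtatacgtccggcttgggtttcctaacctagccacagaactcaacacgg

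Upstream of the SPSNRNA genes a TATA box stood at nearly fixed distance. An exact TATAAA that started 25 to 40 bases before the RefSeq start was present in 5 of 7 genes (71.4%), against 4.4% of 5113 protein-coding genes. It began 33 bases upstream of snu1, snu4 and snu32, 31 bases upstream of snu5 and 29 bases upstream of snu6. snu2 and snu3 had no exact TATAAA in this window. For snu3 this held both at its RefSeq start and at the start of the snu32 match. Near matches were not counted, among them a TATATA in this window of snu2 and of the SPSNORNA genes sno12, snR42, snR92 and snR95. The windows of 25 to 40 bases and the motif were chosen after seeing the data. The 40 bases before each start are printed with TATAAA in capitals.
snu1: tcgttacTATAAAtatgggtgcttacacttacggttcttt
snu4: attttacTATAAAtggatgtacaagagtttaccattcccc
snu5: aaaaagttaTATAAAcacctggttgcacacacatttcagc
snu6: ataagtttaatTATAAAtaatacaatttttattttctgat
snu32: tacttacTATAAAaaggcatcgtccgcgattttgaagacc

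The same window held a TATAAA in 4 of 26 SPSNORNA genes outside same-strand hosts (15.4%), namely snR30 (32 bases), sno20 (34), snR36 (28) and snR91 (33), in 2 of 27 inside such hosts (7.41%) and in 9.94% of tRNA genes. Over the whole 250 bases before the start, TATAAA was found in 13 of 26 SPSNORNA genes outside such hosts and in 27.7% of protein-coding genes. The HomolD box CAGTCACA is a promoter element known from fission yeast ribosomal protein genes. On either strand it was found in 7 of 32 members outside same-strand hosts (21.9%) and in 2.62% of protein-coding genes. snu3 was left out of the 32 for its uncertain start, while snR5, snR10 and snR96, with an ACA on the opposite strand only, were kept at their RefSeq starts. The HomolE box ACCCTACC was found in 2 of the 32, sno20 and snu4, and in 1.51% of protein-coding genes.

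Box H/ACA genes were checked for the ACA that gives the family its name. An ACA that left 2 to 4 bases to the 3′ end was present on the RefSeq strand in 14 of 19, exactly 3 bases from the end in 9. It was present in 2 of the other 34 SPSNORNA genes (snR30 and snoR54b), in none of the SPSNRNA class and in 7 of 171 tRNA genes (4.09%). Of the 5 without it, snR5, snR10 and snR96 had such an ACA on the opposite strand, and sno20 and snR101 on neither. snR36 had one on both strands. Among the other 34 SPSNORNA genes, 2 (snR41 and snoR56) had such an ACA on the opposite strand, and no SPSNRNA gene did. snR46 had it on the minus strand given by RefSeq, whereas the deposited list gives the plus strand, the only strand difference among the 60 members. In the deposited list 4 of the 19 therefore had an ACA end only on the strand opposite to the listed one.

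The 3′ ends of these 4 are printed as the last 40 bases on the strand opposite to the deposited one, with the ACA in capitals. The RefSeq genes lie at chromosome II, 2266028 to 2266169 (snR5), chromosome III, 992436 to 992602 (snR10), chromosome I, 1451227 to 1451437 (snR96) and chromosome III, 1717920 to 1718087 (snR46), and the strand printed is minus for all of them.
snR5: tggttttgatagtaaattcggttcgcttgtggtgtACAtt
snR10: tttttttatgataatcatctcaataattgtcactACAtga
snR96: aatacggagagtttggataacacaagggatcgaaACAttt
snR46: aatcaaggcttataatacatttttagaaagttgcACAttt

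Folding energies were predicted for both strands. The minimum folding energy is lower for a more stable fold. For snR10 it was -20.5 kcal/mol on the RefSeq strand and -34.1 on the opposite strand, for snR96 -28.6 and -42.4, and for snR5 -28.0 and -31.5. All 3 thus folded lower on the strand with the ACA. snR46 had -37.6 kcal/mol on the RefSeq strand, which holds its ACA, and -31.1 on the deposited strand. Of the 13 genes with an ACA on the RefSeq strand only, 11 had the lower energy there, as did both genes with an ACA on neither strand. The RefSeq strand also had the lower energy in 22 of the 34 other SPSNORNA genes and in 6 of 7 SPSNRNA genes. The exceptions among the 13 genes with an ACA on the RefSeq strand only were snR92 (-30.1 against -32.3) and snR90 (-92.7 against -94.4). The snR90 sequence includes its RefSeq intron. Energies are predictions without an error estimate. On the opposite strand of snR10 a TATAAA began 33 bases before the start, and none was found at the same window on its RefSeq strand. The same was true of snR95, with a TATAAA 34 bases before the start of the opposite strand, although its ACA and its lower energy (-52.3 against -36.1 kcal/mol) were on the RefSeq strand. No transcript strand was measured in the files analysed here, and which strand is transcribed was not tested.

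**Figure D3:**
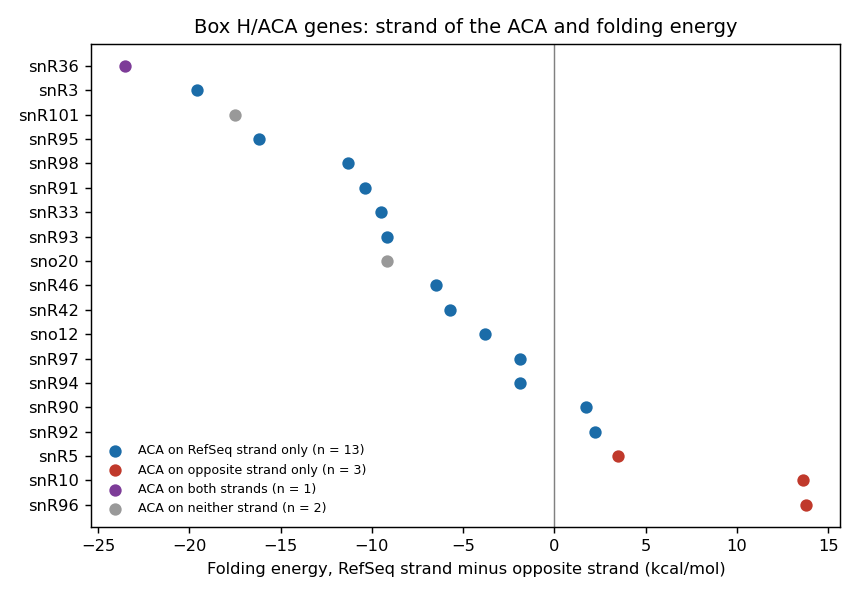
Predicted folding energy on the RefSeq strand minus that on the opposite strand (kcal/mol) for the 19 box H/ACA genes, coloured by the strand that holds an ACA 2 to 4 bases from its 3′ end. The 3 genes with an ACA on the opposite strand only have positive differences (3.5 to 13.8), and 11 of the 13 with it on the RefSeq strand only have negative ones.

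Many snoRNAs of eukaryotes are made from a longer host transcript. In the deposited list 27 of 53 SPSNORNA genes (50.9%) lay wholly inside a feature of the same strand whose name starts with SPA, SPB, SPC or SPNCRNA, and 0 of 7 SPSNRNA genes did. Among the 6910 other nuclear features the share was 1.74%, and among tRNA genes 0.585%. The SPSNORNA share includes genes inside features that RefSeq describes as snoRNA primary transcripts, named below, where containment is part of the annotation. The 27 lay in 21 different hosts, 11 in features with the names of protein-coding genes and 16 in SPNCRNA features. By family, 23 of the 34 genes not named as box H/ACA had a same-strand host, and 4 of the 19 box H/ACA genes did.

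By RefSeq's exons, 10 of the 27 lay in introns of protein-coding genes, and no box H/ACA gene was among them. snoU24b lay in cpc2, the gene of the ribosomal protein RACK1, snoR38 in SPAC29A4.02c, which encodes the elongation factor EF-1 gamma, snoR54 in gua1, which encodes IMP dehydrogenase, and snoR39b in rpl701, a ribosomal protein L7 gene. In budding yeast the snoRNAs U24, snR38, snR54 and snR39 are known to lie in introns of the genes of the same 4 proteins. snoR39a lay in rlp7, a ribosome biogenesis gene related to L7, so both relatives had L7-like hosts. The remaining hosts had other roles, namely ade4 in purine synthesis (snoR58), spt20 of the SAGA complex (snoU24), pfd1 of prefoldin (snoZ15), ero11 in protein oxidation in the endoplasmic reticulum (snoU18) and fta3 at the kinetochore (snoR47).

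Host introns were long. They ran from 157 bases in fta3 to 441 in rpl701 with a median of 238, against a median of 56 and quartiles of 46 and 85 for all 5228 introns of protein-coding genes. Of those, 541 (10.3%) were at least as long as the shortest host intron. The part of the intron that is not snoRNA ran from 73 bases in fta3 to 363 in rpl701. It exceeded the upper quartile of all introns except in fta3 and in ero11 (81 bases). The snoRNA began a median of 49.5 bases after the 5′ splice site (24 to 266) and ended a median of 83.5 bases before the 3′ splice site (49 to 258). Only snoR39b and snoR54 lay nearer the 3′ splice site. In 7 of the 10 hosts it was the gene's single intron. The other hosts were cpc2, pfd1 and spt20, where the snoRNA lay in intron 2 of 2, intron 3 of 3 and intron 4 of 4.

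**Figure D4:**
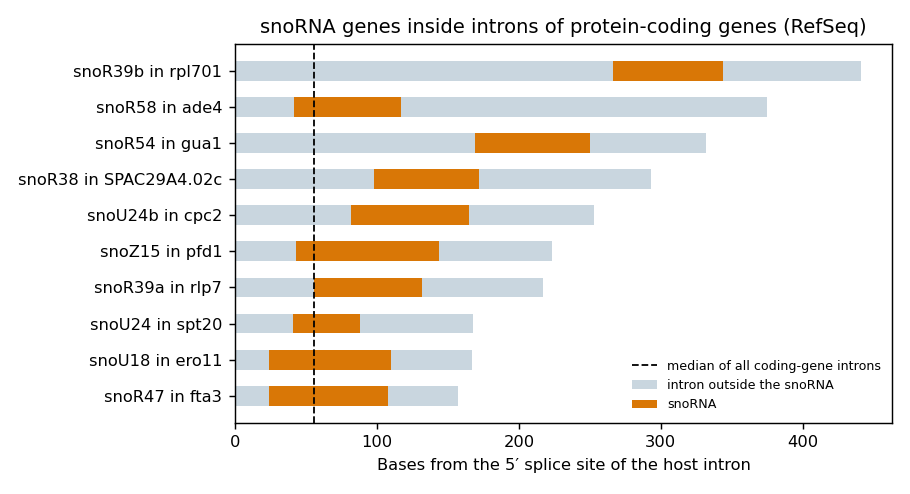
The 10 host introns to scale, in bases from the 5′ splice site, with the snoRNA in orange and the median of all protein-coding gene introns (56 bases) as a dashed line. All 10 introns exceed that median, and the 3′ flank is longer than the 5′ flank in 8 of them.

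By RefSeq, another 13 of the 27 lay in SPNCRNA RNAs and not wholly within an intron. These were the 8 clustered genes described next, snoZ30 in SPNCRNA.1483, snoR68 in SPNCRNA.1650, snR3 in SPNCRNA.1394, snR98 in SPNCRNA.814 and snR97 in SPNCRNA.617. RefSeq describes all of these hosts except SPNCRNA.617 as snoRNA primary transcripts, so containment in them is part of the annotation. The hosts of snoZ16 (SPNCRNA.727), snr62 (SPAC4H3.12c) and snR90 (SPNCRNA.1038) had no match by locus tag in the RefSeq table. sno16 lay inside SPNCRNA.1597 in the deposited list but outside that gene in RefSeq.

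Only 8 members were clustered, in 2 groups, both on the plus strand of chromosome I and both of box C/D genes. snoZ8, snoZ7, snoZ5, snoZ4 and snoZ3 lay within 989 bases (deposited coordinates 526725 to 527713), separated by 132, 153, 110 and 148 bases. All 5 were inside SPNCRNA.659 (snoZ), which RefSeq describes as their primary transcript and which ran 85 bases before the first and 828 bases past the last. snR41, snR70 and snR51b lay within 563 bases (1200167 to 1200729), separated by 139 and 143 bases, inside SPNCRNA.723 of 869 bases. The snoRNAs snR41, snR70 and snR51 are also known to share a precursor in budding yeast. The next smallest gap between members was 3341 bases, between snoR58 and snoU24. Of the SPSNORNA genes 15.1% were clustered, against 36.8% of tRNA genes within 1 kb of another tRNA gene and 99.2% of other nuclear features within 1 kb of another such feature.

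**Figure D5:**
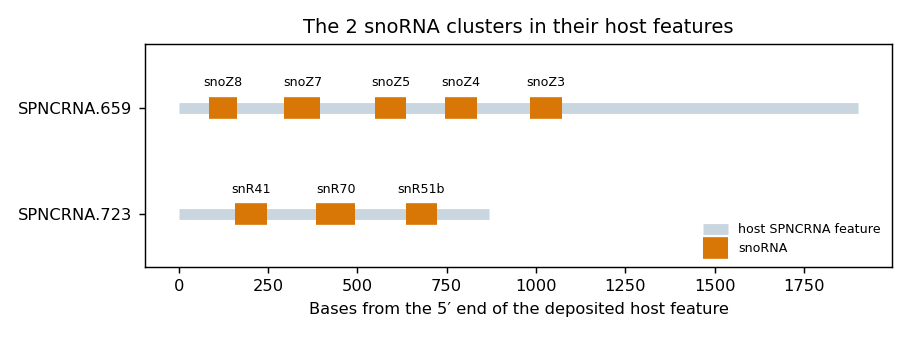
The 2 clusters drawn in their deposited SPNCRNA hosts, in bases from the 5′ end of the host, with each snoRNA as an orange block. The 5 snoRNAs of SPNCRNA.659 are followed by 828 bases without a member, and the 3 of SPNCRNA.723 lie with similar margins of 159 and 147 bases.

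The longest complementary stretches of the clustered genes fell at different places. Those of snoZ4, snoZ5, snoZ8, snR41 and snR51b ended within 2 bases of a CTGA, and those of snoZ7, snoZ3 and snR70 did not. In SPNCRNA.659, snoZ4 matched 18S bases 25 to 37 over 13 bases, snoZ7 18S bases 578 to 588 over 11, snoZ5 28S bases 2373 to 2384 over 12, snoZ8 28S bases 2507 to 2517 over 11 and snoZ3 28S bases 3050 to 3062 over 13. In SPNCRNA.723, the 17 bases of snR41 against 18S stood beside 15 bases of snR51b against 28S bases 2821 to 2835, where the fifth base before an internal CTGA faced 28S base 2824. The longest stretch of snR70 was 9 bases, against 28S bases 429 to 437. That is below the length of 10 bases used for the counts of guide stretches.

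Opposite-strand hosts held SPSNORNA genes at a share near that of other nuclear features and above that of tRNA genes. Wholly inside one lay 6 of 53 SPSNORNA genes (11.3%) and 0 of 7 SPSNRNA genes, against 9.77% of other nuclear features and 1.17% of tRNA genes. They were snoR02 in alg3 (a mannosyltransferase), sno52 in taf9 (a subunit of TFIID and SAGA), snr79 in gpi12 (GPI anchor synthesis), snR97 in rad8 (a DNA repair factor), sno20 in SPBC1921.04c (uncharacterised) and snR92 in SPNCRNA.1487. None of the 6 lay wholly within an intron of its host, and partial overlap with introns was not counted. sno20 overlapped the coding sequence of SPBC1921.04c over its full 172 RefSeq bases, and the other hosts were overlapped outside coding sequence. snR97 was the one gene with both kinds of host, SPNCRNA.617 on its own strand and rad8 on the other.

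Some members only touched a host. Partial overlap was found for 5 SPSNORNA genes, namely snR30, snR36, snR91, snR95 and snR96, and for 4 SPSNRNA genes. snu1 shared 176 bases with gpt2 and snu6 shared 84 with cwf21 on the same strand, and snu3 shared 192 with tif308 and snu4 shared 224 with met17 on the opposite strand. With RefSeq intervals all 4 SPSNRNA overlaps were 0 bases, so they came from the extended deposited intervals. No shared base with any host was found for 16 SPSNORNA genes (30.2%) and 3 SPSNRNA genes (42.9%), against 32.4% of other nuclear features.

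Chromosome III held 4 SPSNORNA and 0 SPSNRNA genes, or 1.63 members per megabase against 6.09 on chromosome I and 4.85 on chromosome II. The other nuclear features numbered 524 per megabase on chromosome III, 555 on chromosome I and 557 on chromosome II. All 4 genes there (sno12, snR10, snR46 and snR94) were box H/ACA. Chromosome I held 31 SPSNORNA and 3 SPSNRNA genes, and chromosome II held 18 and 4. Of the SPSNORNA genes 36 were listed as plus and 17 as minus, while 51.4% of other nuclear features were on the plus strand. In the SPSNRNA class 2 were plus and 5 were minus.

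No member lay near the induced break. The cut site is listed on chromosome II and its nearest member to the right was snoU14, an RNA known to act in 18S processing, 79375 bases away. To the left it was snR3 at 346768 bases. Within 10 kb of the cut there were 0 members. At the chromosome II average of 4.85 members per megabase, most windows of that size would hold none. Other features in the window were not counted.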

How the data were processed

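The deposited annotation is an interval list in BED format of the modified Schizosaccharomyces pombe genome, with 7002 features and no header. Per the submitters' processing notes, reads were aligned with Bowtie2 and the build was ASM294v2. The labels do not say by which steps the authors built the interval list. The deposited values are positions in bases, so no depth, replicate spread or test applies. Starts were read as counted from 0.

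The 60 members were matched by locus tag to RefSeq (assembly ASM294v3), and all 60 matched. Every sequence was read at the RefSeq coordinates and never at the deposited ones, which are 1842 bases higher for chromosome II members to the right of the inserted break system. A member was inside a host feature when wholly contained in a feature whose name starts with SPA, SPB, SPC or SPNCRNA, and clustered when less than 1 kb from another member. Sequence boxes, complementary runs and promoter motifs were exact string matches unless stated otherwise. Alignments used edlib 1.3.9 and folding energies RNAfold 2.7.2, with scripts in Python 3.11.15 and plots in matplotlib 3.10.9. The counting functions were tested on small made-up and simulated cases, and 10 of 10 cases passed. The simulated sequences for the box search were drawn from A and C only. That case shows that planted boxes were recovered and cannot show how often boxes arise by chance.

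Named genes were every SPSNRNA member, every member inside a host feature, every clustered member, the 3 shortest and 3 longest SPSNORNA members and the member nearest the break on each side. Genes named for a box, a target run, a strand or a promoter motif were chosen after their values were seen. The members and lists were chosen with earlier results of these data known. Alternative overlap, gap, window and interval settings were tried. No other samples' columns were left out.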

Additional observations from a re-analysis of the deposited data

How the results depend on the processing

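No paired analysis was possible because the deposited files hold intervals and no value of any sample, so no result comes from a test. Of 26 alternative values, 20 stayed within 1.5 times the main one and 6 did not. The number of members inside an opposite-strand host feature went from 6 to 10 when 1 shared base was enough. With RefSeq intervals for members and hosts it went to 16, and to 6 when, in an alternative added after seeing the data, hosts were limited to loci of the deposited list, so the higher value came with host loci outside that list. The median length of the SPSNRNA class went from 476 bases to 149 with RefSeq intervals. The number of SPSNORNA members with both the C and the D box went from 17 to 0 in windows of 10 bases, and to 27 with 1 mismatch allowed in the C box. The number with an ACA near the 3′ end went from 16 to 6 when the opposite strand was read. The last 2 settings were also added after seeing the data. Same-strand hosts held between 23 and 32 members, against 27, and the clusters held 8 members under every gap and interval tried. A wrong strand or end in either annotation would move the box counts directly.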
